A study of Mus musculus with 6 samples.

Results

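The genes described here encode receptors for steroid hormones and their relatives: the estrogen receptors Esr1 and Esr2, the progesterone receptor Pgr, the membrane estrogen receptor Gper1, the glucocorticoid receptor Nr3c1, the mineralocorticoid receptor Nr3c2, and the estrogen-related receptors Esrra, Esrrb and Esrrg. These 9 genes were chosen by name, and every probe set that the array annotation pairs with 1 of them and with no other gene was taken, which gave 24 of the 34945 single-gene probe sets of the array. All 9 genes were measured. The tissue was whole brain of C57BL/6 mouse pups. On postnatal day 2 each pup had an intraperitoneal injection, either of testosterone propionate (TP, a testosterone ester; 1 mg a pup, dissolved in 20 µL sesame oil) or of that volume of oil without hormone (vehicle). Brains were collected on postnatal day 6. Each of the 6 arrays received RNA pooled from 6 mice: 2 arrays of TP females, 2 of vehicle females, 1 of TP males and 1 of vehicle males. The later female array of each treatment is labelled a replica, and the labels do not say that it came from other mice, so the p-values rest on differences among arrays that may be technical only. A whole brain mixes regions, so a gene made in a few nuclei is diluted, and fewer cells of a type cannot be told apart from less RNA per cell.

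Most of these receptors are ligand-controlled transcription factors of the nuclear receptor family, which bind DNA as dimers and recruit coactivators or corepressors. In the newborn rodent brain, testosterone can be converted to estradiol by aromatase, and estradiol acting on estrogen receptors in the hypothalamus and preoptic area is a classical route of masculinization, with Pgr as a well-known estrogen-induced gene there. The corticoid receptors bind glucocorticoids and mineralocorticoids and are known in neurons of the hippocampus. The estrogen-related receptors resemble estrogen receptors in sequence but do not bind estradiol, and are known as regulators of mitochondrial genes.

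No receptor probe set passed the test in any comparison. The test often missed TP changes of 0.5 log2 units in simulated data, where 44% passed over 6 arrays and 0% in females. The simulated spread was only that between female arrays of a group, so the real test may miss more. With TP against vehicle over all 6 arrays, adjusting for sex, 0 of 24 passed an adjusted p of 0.05 (limma with Benjamini-Hochberg adjustment over all 34945 probe sets), where 0% of all probe sets did and 4304 had an unadjusted p under 0.05. The smallest adjusted p among the receptors was 0.336, for Esr2. At an unadjusted p under 0.05 there were 3 of 24, beside 12.3% of all probe sets, and the receptors' share was 12.5%, near that background. Of these, Nr3c1 (1457635_s_at) and Esrrg (1457896_at) had positive differences, beside 5.11% of all probe sets, and Esr2 (1426103_a_at) a negative one, beside 7.21%. The differences split into 12 positive and 12 negative, with a median of 0.0037 log2 units against -0.020 over all single-gene probe sets. For 22 of the 24 the 95% confidence interval lay within 1.5-fold in either direction, beside 34422 of all 34945 probe sets.

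A single library stood apart. The library labelled male TP had Xist, the RNA that coats the inactive X chromosome of females, at 10.45 log2 units (1436936_s_at), against 5.29 in the male vehicle array and 12.61 to 12.83 in the female arrays. Its Y-linked genes were near the male vehicle levels, with Eif2s3y at 9.12 and Kdm5d at 6.80 against 9.16 and 7.17. The cause was not tested. The comparison on the 4 female arrays does not use this library, and without this library the fit over the other 5 arrays gives the female difference. The number of arrays limits the precision, with 2 arrays per female group and 1 per male group. The median of each array lay between 5.69 and 5.74 log2 units. All 8 neuronal, 5 astrocyte and 5 oligodendrocyte lineage markers measured lay above the 40th percentile of single-gene probe sets, at 5.49 log2 units; probe sets below it are called dim here. Of 14 hypothalamic markers measured, 7 were not dim, while Ghrh, Nkx2-1, Sim1, Nr5a1, Hmx2, Hmx3 and Rax were.

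Several steroid receptors are known to regulate their own or each other's genes by binding DNA near the start of transcription. The RefSeq start windows of the receptors (mouse build GRCm38.p6, 250 bases before to 50 after the start) were therefore searched on both strands, 13 windows of 8 of the genes. The motifs were AGGTCA of the estrogen receptors, the palindrome of GGTCA, any 3 bases and TGACC, the estrogen-related receptor motif TCAAGGTCA, which contains AGGTCA, the motif AGAACA of glucocorticoid and progesterone receptors, and its palindrome of AGAACA, any 3 bases and TGTTCT. A match was found in 1 of the 13 windows. Over all 32851 windows, 16.3% held AGGTCA, 19.0% held AGAACA, 0.423% held TCAAGGTCA, 0.0700% held the estrogen palindrome and 0.00913% held the other palindrome. A match is a match of letters, and its absence says only that these letters are not in this window. The window with the match lies at a start of Esrrb, and the stretch around it (chr12:86421403-86421448, plus strand) is shown 5′ to 3′ with the match in capitals, at bases -221 to -216 from the start.
Esrrb: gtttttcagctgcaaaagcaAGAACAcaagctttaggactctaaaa
For Esr2, which had the smallest adjusted p for TP over 6 arrays, and Pgr, whose probe sets differed most for sex over 6 arrays, the 100 bases before the start are shown with CG dinucleotides, where DNA methylation occurs, in capitals. The Esr2 stretch (chr12:76177260-76177359, minus strand) holds 5 and the Pgr stretch (chr9:8899733-8899832, plus strand) holds 4.
Esr2: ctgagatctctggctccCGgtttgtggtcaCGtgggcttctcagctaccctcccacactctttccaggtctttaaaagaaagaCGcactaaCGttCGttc
Pgr: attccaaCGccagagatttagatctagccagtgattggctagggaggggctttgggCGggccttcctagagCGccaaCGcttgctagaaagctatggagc
Over 250 bases, GC content was 56.4% for Esr2 and 43.6% for Pgr, where the median of all windows was 52.4%.

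**Figure D1:**
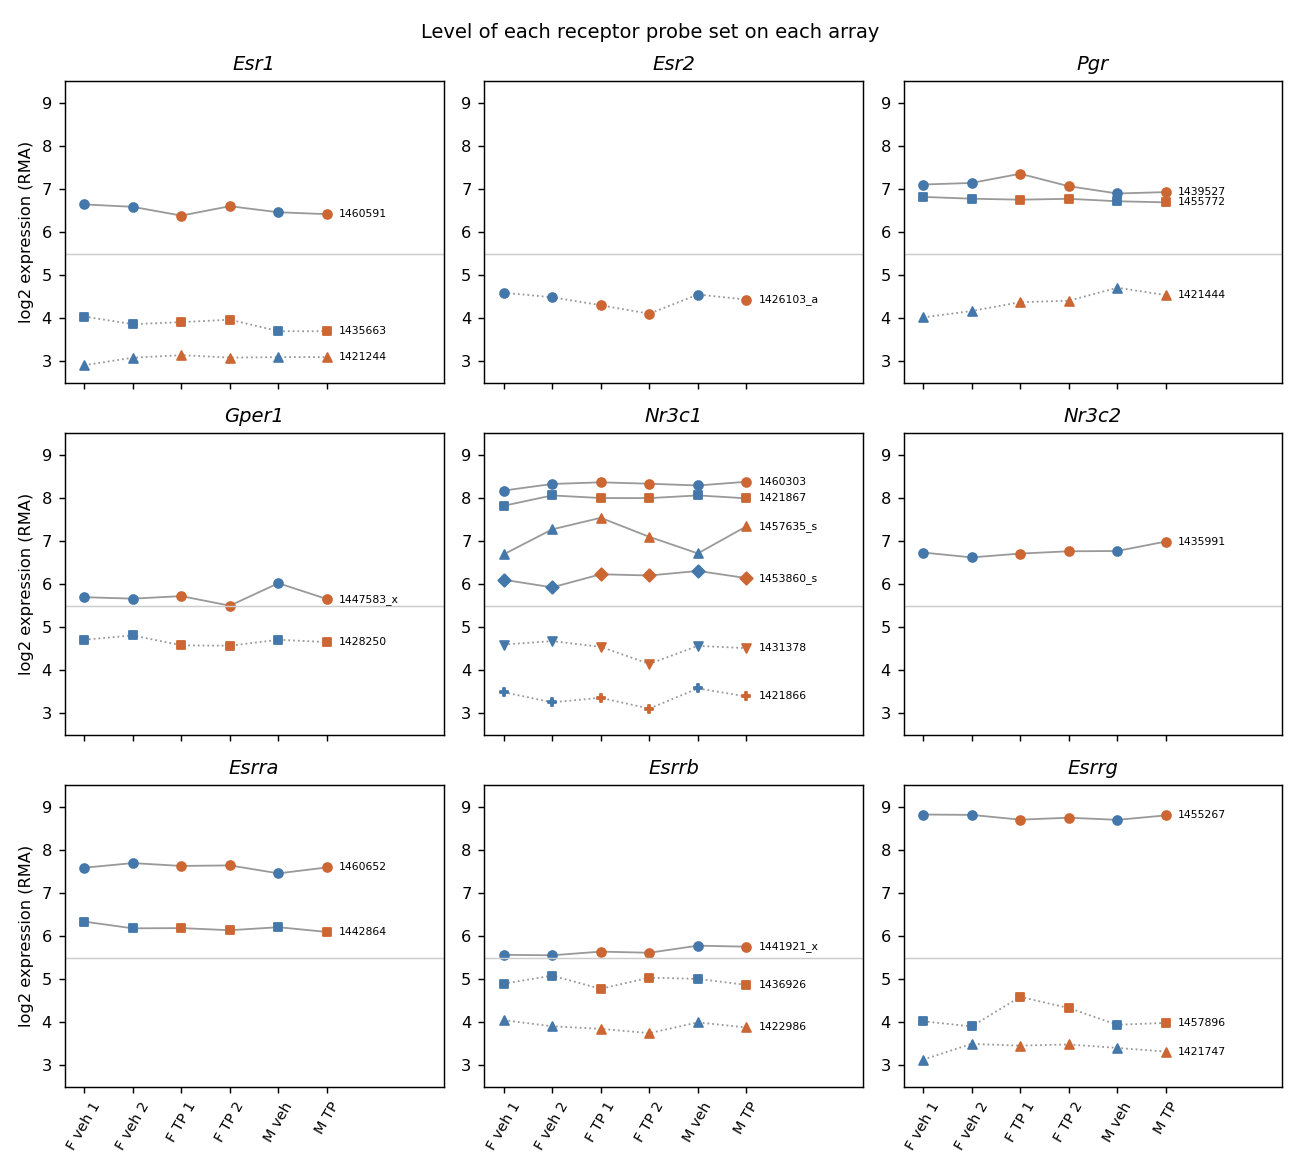
Level of each of the 24 receptor probe sets (log2 expression, vertical axis) on the 6 arrays (horizontal axis; F female, M male, veh vehicle), 1 panel per gene and 1 marker shape per probe set; blue points are vehicle arrays and orange points TP arrays, dotted lines join dim probe sets and the grey line is the dim limit of 5.49. Within a probe set the values span at most 0.85 log2 units, while probe sets of 1 gene lie up to 5.38 log2 units apart.

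Levels varied less across the arrays within a probe set than between the highest and lowest probe sets of a gene. The ranges over the arrays of Pgr 1421444_at and Esrrg 1457896_at were 0.69 log2 units each. The 3 probe sets of Esrrg spanned 5.38 log2 units in mean level and the 6 of Nr3c1 spanned 4.94, whereas the range of a receptor probe set over the 6 arrays was at most 0.85. Probe sets differ in affinity, so these levels do not rank the genes. Of the 24, 11 were dim: 2 of 3 for Esr1, the only probe set of Esr2, 1 of 3 for Pgr, 1 of 2 for Gper1, 2 of 6 for Nr3c1, 2 of 3 for Esrrb and 2 of 3 for Esrrg. Nr3c2 and Esrra had none. In the array maker's naming, the ending _a_at marks probes for alternative transcripts of a gene, _s_at probes shared by several transcripts, and _x_at probes that may cross-hybridize.

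Esr1 encodes estrogen receptor alpha. Its brightest probe set, 1460591_at, stood at 6.64 and 6.58 in the vehicle females, 6.38 and 6.60 in the TP females, 6.46 in the vehicle male and 6.41 in the TP male. The groups overlapped, the TP females differing from each other by more than their mean differed from vehicle. The difference of TP from vehicle was -0.096 log2 units (SE 0.075, 95% interval -0.27 to 0.079, limma adjusted p = 0.631), or 0.94-fold with an interval of 0.83 to 1.06, and -0.12 in females alone. Leaving out each array in turn gave -0.15 to -0.027, the value nearest to 0 without the original female TP array. The dim probe set 1435663_at gave -0.0095 (interval -0.17 to 0.15) and the dim 1421244_at gave 0.079 (interval -0.088 to 0.25).

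Esr2 encodes estrogen receptor beta, and its reading rests on 1 dim probe set. The vehicle arrays gave 4.59 and 4.48 in females and 4.55 in the male, and the TP arrays 4.30 and 4.10 in females and 4.43 in the male. All 3 TP arrays lay below all 3 vehicle arrays, the male TP array by the least. The means were 4.54 ± 0.053 in vehicle and 4.28 ± 0.17 in TP arrays (SD, n = 3 each, sexes mixed), and the fitted difference was -0.26 (SE 0.083, interval -0.46 to -0.069, limma adjusted p = 0.336). On the female arrays alone, which leave out the male TP library, it was -0.34 (SE 0.098, interval -0.57 to -0.10, adjusted p = 0.577). Neither passed the test.

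Of the 24 probe sets, 5 had TP and vehicle groups that did not overlap over the 6 arrays, beside 15.1% of all probe sets. The 4 that lay lower with TP were Esr2, Gper1 (1428250_at), Nr3c1 (1431378_at) and Esrrb (1422986_at), all dim, beside 9.12% of all probe sets. That makes 4 of 11 dim receptor probe sets, beside 1154 of all 13978 dim probe sets. Of those not dim, 0 of 13 lay lower, beside 2034 of all 20967. The brightest of Nr3c1 (1460303_at) lay higher, beside 6.01% of all probe sets. Markers of hindbrain and spinal cord separated the same arrays. Of 8 measured, 7 had negative differences, with a mean level of 6.00 to 6.11 in vehicle arrays and 5.56 to 5.86 in TP arrays, and Hoxb4, Hoxc5, Hoxd3 and Phox2a were dim. Endothelial and pericyte markers also had non-overlapping means, 8.16 to 8.20 in vehicle and 8.02 to 8.10 in TP arrays, with 5 of 6 differences negative and Pecam1 dim. So did 5 skin and hair markers, 4 with negative differences, at 5.89 to 5.98 in vehicle and 5.80 to 5.86 in TP arrays, with Krt5, Krt14 and Flg dim. Their part in the receptor values was not tested.

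Pgr encodes the progesterone receptor. Its brightest probe set, 1439527_at, stood at 7.10 and 7.14 in vehicle females, 7.35 and 7.06 in TP females, 6.89 in the vehicle male and 6.92 in the TP male. The original female TP array stood above the vehicle females, and its replica stood below both. The difference was 0.069 (SE 0.084, interval -0.13 to 0.27, limma adjusted p = 0.772). The probe set 1455772_at gave -0.031, with an interval of -0.16 to 0.10, the narrowest of the 24.

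The dim Pgr probe set, 1421444_at, stood at 4.02 and 4.17 in vehicle females, 4.37 and 4.40 in TP females, 4.71 in the vehicle male and 4.53 in the TP male. Female TP arrays lay above female vehicle arrays, and the male pair ran the other way. The female difference was 0.30 (SE 0.086, interval 0.088 to 0.50, limma adjusted p = 0.577), against 0.14 (interval -0.10 to 0.38) over all 6 arrays. The male effect minus the female effect was -0.47 (SE 0.15, unadjusted p = 0.0185, limma adjusted p = 1.00), and 1 of 24 receptor probe sets had an unadjusted p under 0.05 in that comparison, beside 4.84% of all probe sets. It rests on the male TP library.

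Gper1 encodes a G protein-coupled receptor that responds to estradiol at the membrane and is no nuclear receptor. Its brighter probe set, 1447583_x_at, stood at 5.70 and 5.66 in vehicle females, 5.72 and 5.50 in TP females, 6.02 in the vehicle male and 5.65 in the TP male. The vehicle male was the high array. The difference was -0.17 (SE 0.090, interval -0.38 to 0.041, limma adjusted p = 0.485) over all 6 arrays and -0.069 (interval -0.30 to 0.17) without the male arrays. The dim 1428250_at had 4.71 and 4.81 in vehicle females, 4.71 in the vehicle male, 4.58 and 4.57 in TP females and 4.65 in the TP male, and gave -0.14 (SE 0.065, adjusted p = 0.428).

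**Figure D2:**
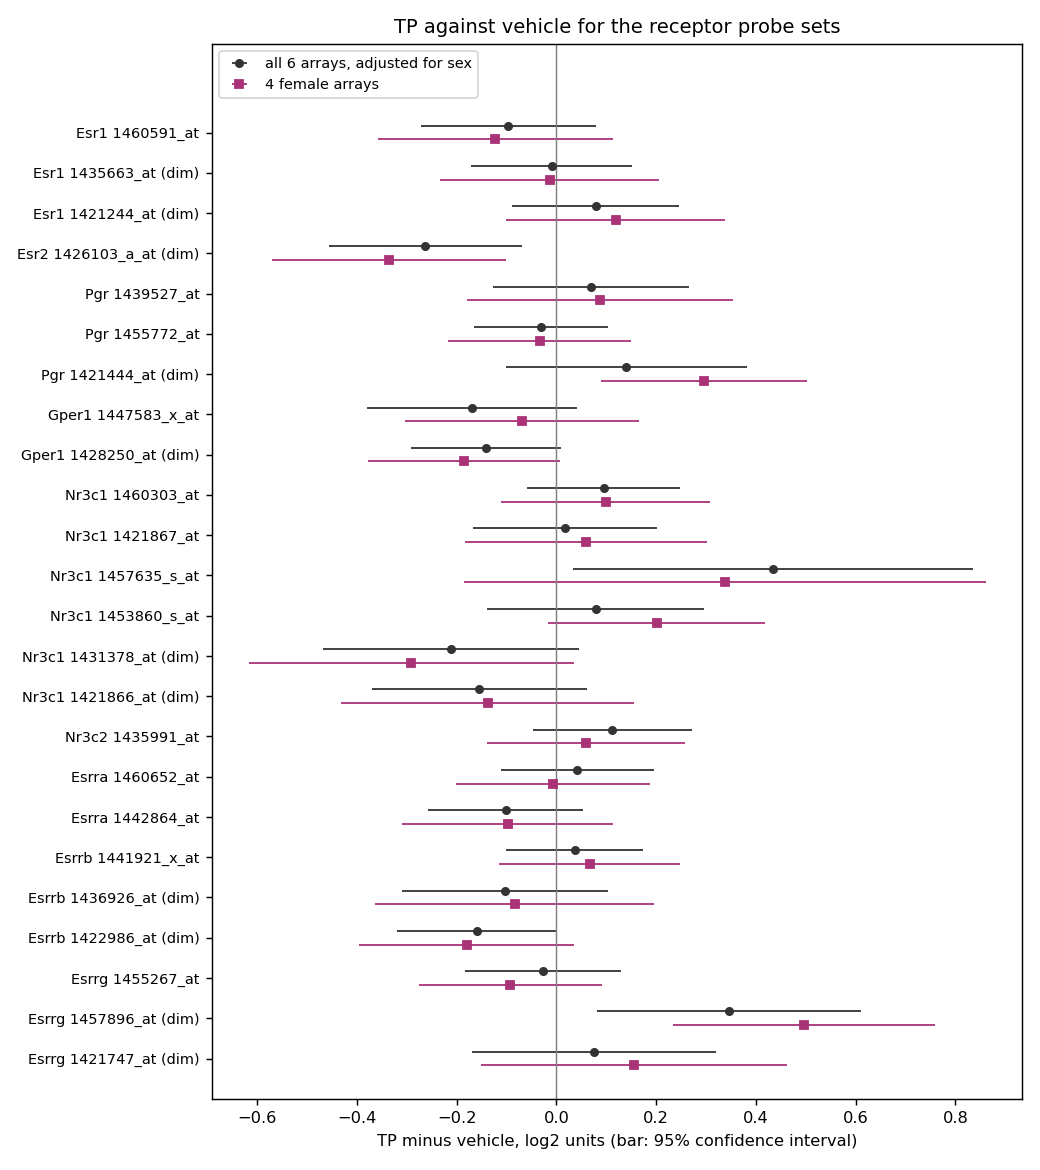
TP minus vehicle in log2 units (horizontal axis) for the 24 receptor probe sets (vertical axis), as circles for all 6 arrays adjusted for sex and squares for the 4 female arrays; bars are 95% confidence intervals from limma, not adjusted for the number of tests. Intervals that do not reach 0 are those of Esr2 and Esrrg 1457896_at in both fits, Nr3c1 1457635_s_at over 6 arrays and Pgr 1421444_at in females.

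Nr3c1 encodes the glucocorticoid receptor, which is made in most cell types. Its brightest probe set, 1460303_at, stood at 8.17 and 8.32 in vehicle females, 8.36 and 8.33 in TP females, 8.29 in the vehicle male and 8.37 in the TP male. The TP arrays lay above the vehicle arrays by a narrow gap. The difference was 0.095 (SE 0.066, interval -0.058 to 0.25, limma adjusted p = 0.586), 1.07-fold with an interval of 0.96 to 1.19, and 0.099 in females alone. The next brightest, 1421867_at, gave 0.017 (interval -0.17 to 0.20).

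The widest range among the receptors belonged to Nr3c1 1457635_s_at. Vehicle arrays gave 6.69 and 7.27 in females and 6.71 in the male, and TP arrays gave 7.54 and 7.09 in females and 7.34 in the male. The replica array of each female group fell among the other group's values. The difference was 0.43 (SE 0.17, interval 0.034 to 0.84, limma adjusted p = 0.390), and in females alone 0.34 (interval -0.19 to 0.86). Leaving out 1 female array each gave 0.048 to 0.63 in females, the lowest without the original vehicle array. The gap between the vehicle females was 0.58 and that between the TP females was 0.44, both larger than the female difference. The other Nr3c1 probe sets gave 0.079 for 1453860_s_at, -0.21 for the dim 1431378_at and -0.15 for the dim 1421866_at, so 4 of the 6 were positive and 2 negative.

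Nr3c2 encodes the mineralocorticoid receptor and had 1 probe set, 1435991_at. It stood at 6.73 and 6.62 in vehicle females, 6.71 and 6.76 in TP females, 6.77 in the vehicle male and 6.99 in the TP male. The male TP library was the highest. The difference was 0.11 (SE 0.068, interval -0.047 to 0.27, limma adjusted p = 0.533) over 6 arrays and 0.059 (interval -0.14 to 0.26) in females. Hypothalamic markers had their highest mean level on the same array, 5.94 against 5.74 to 5.79 on the others. So did pituitary markers, 5.35 against 4.61 to 4.81, with Prl, Cga, Fshb, Tshb, Tbx19 and Pitx1 of the 9 measured dim. Pomc is in both lists. Microglia markers were also highest there (6.97, Itgam dim). Astrocyte (10.02), oligodendrocyte lineage (9.95), endothelial and pericyte (8.02), hindbrain and spinal cord (5.56), and bone and cartilage markers (4.72) had their lowest mean there. Neither extreme fell on this array for the neuronal, retina and pineal, ear and cochlea, muscle, skin and hair, and blood lists. The part of these markers in the Nr3c2 value was not tested.

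Esrra encodes estrogen-related receptor alpha, a partner of the coactivator Ppargc1a on mitochondrial genes. Its brighter probe set, 1460652_at, stood at 7.59 and 7.69 in vehicle females, 7.63 and 7.64 in TP females, 7.46 in the vehicle male and 7.59 in the TP male. The TP females lay between the vehicle females. The difference was 0.042 (interval -0.11 to 0.20) over all 6 arrays, and -0.0062 (interval -0.20 to 0.19) in females. The other probe set, 1442864_at, gave -0.10 (interval -0.26 to 0.053).

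Esrrb, known from pluripotent cells and the inner ear, had its brightest probe set, 1441921_x_at, at 5.57 and 5.56 in vehicle females, 5.64 and 5.61 in TP females, 5.78 in the vehicle male and 5.76 in the TP male. Both males lay above all females. The TP difference was 0.037 (SE 0.059, interval -0.10 to 0.17). The dim 1436926_at gave -0.10 (interval -0.31 to 0.10) and the dim 1422986_at gave -0.16 (SE 0.068, unadjusted p = 0.0501, limma adjusted p = 0.406).

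Esrrg encodes estrogen-related receptor gamma, which is known from brain and other tissues with high oxidative metabolism. Its brightest probe set, 1455267_at, stood at 8.82 and 8.81 in vehicle females, 8.70 and 8.75 in TP females, 8.70 in the vehicle male and 8.80 in the TP male. Female TP arrays lay below female vehicle arrays and the males ran the other way. The difference was -0.027 (SE 0.067, interval -0.18 to 0.13, limma adjusted p = 0.898) over 6 arrays and -0.092 (interval -0.28 to 0.091) in females. The whole range over the 6 arrays was 0.12, the smallest of the 24.

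The dim Esrrg probe set 1457896_at had the largest female difference among the receptors. It stood at 4.02 and 3.91 in vehicle females, 4.59 and 4.33 in TP females, 3.94 in the vehicle male and 3.99 in the TP male. Both TP females lay above every other array, and the TP male lay among the vehicle arrays. The mean of 5 bone and cartilage markers was also highest in the TP females, at 5.61 and 5.59, against 5.06 and 5.10 in vehicle females. It was 5.16 in the vehicle male and 4.72 in the TP male, with Ibsp, Dmp1 and Acan dim. The median female difference of these markers was only 0.097, and over 6 arrays 3 were positive and 2 negative. Their part in the Esrrg value was not tested. The female difference of Esrrg 1457896_at was 0.50 (SE 0.11, interval 0.23 to 0.76), 1.41-fold, with a limma adjusted p = 0.566. Over 6 arrays it was 0.35 (SE 0.11, adjusted p = 0.343; 0.23 to 0.50 when leaving out 1 array each), and the male effect minus the female effect was -0.45 (SE 0.19, unadjusted p = 0.0516). The brightest Esrrg probe set had the opposite sign in females, and the dim 1421747_at gave 0.16 there.

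Over all the receptors within females, 0 of 24 passed by limma, where 0.00572% of all probe sets did, and 3 of 24 had an unadjusted p under 0.05, beside 7.83%. These were Esr2, Pgr 1421444_at and Esrrg 1457896_at, all dim. That makes 3 of 11 dim receptor probe sets, beside 10.8% of all dim probe sets, and 0 of 13 that were not dim, beside 5.82% of all that were not dim. The TP and vehicle females separated fully for 12 of 24 probe sets, beside 38.4% of all, with 6 higher beside 16% and 6 lower beside 22.5%. For 8 of the 24 the difference was larger than the gap within either female pair, beside 25.7% of all single-gene probe sets. Of 14 marker lists, mean levels separated the same female groups for several. Hindbrain and spinal cord, endothelium and pericytes, skin and hair, neurons and astrocytes were lower with TP, and bone and cartilage and muscle higher. The median female difference of the astrocyte markers was 0.034, opposite in sign to that of their mean level. Among the muscle markers Myh3, Myh8, Tnnt3 and Myog were dim. Neuronal markers were at 11.86 and 11.84 in vehicle and 11.83 and 11.80 in TP females. Their part in the receptor values was not tested.

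**Figure D3:**
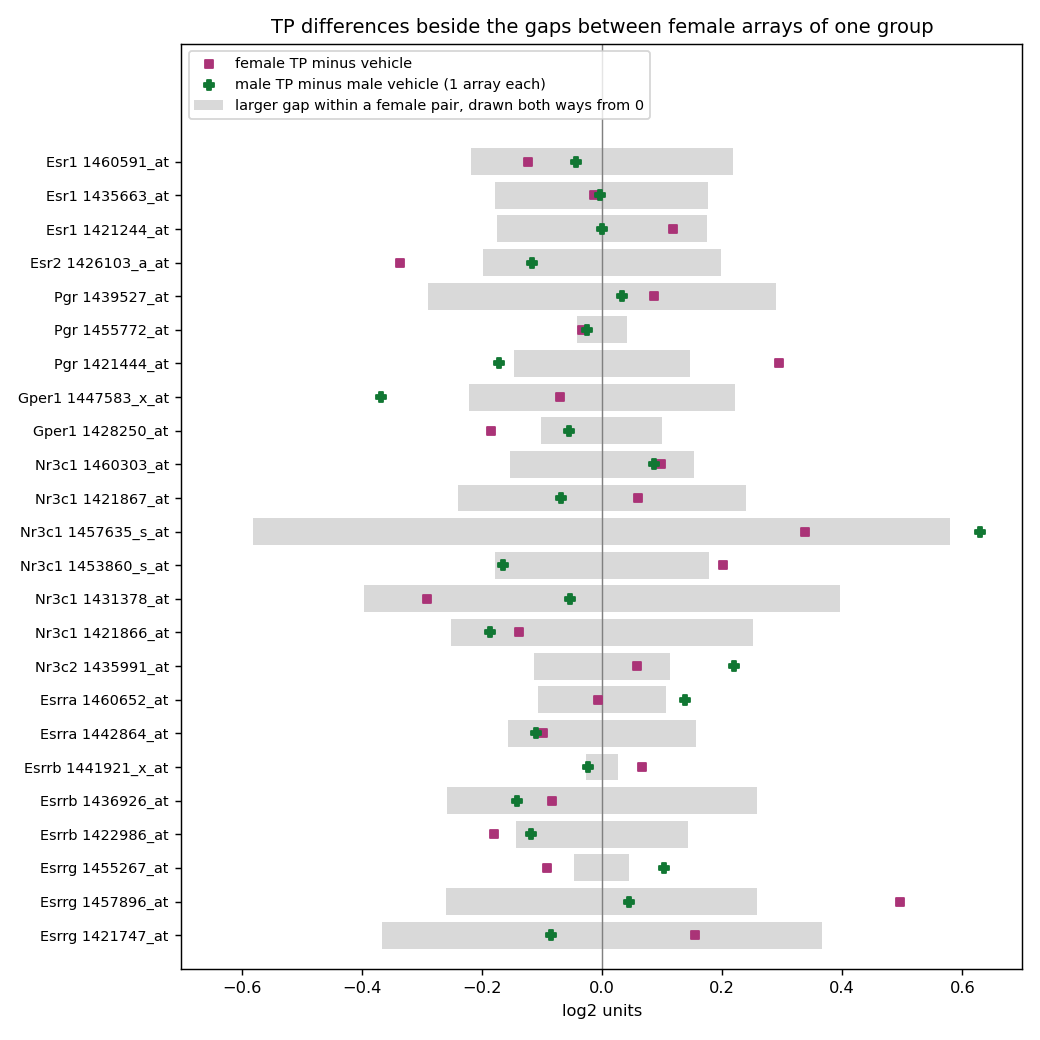
TP minus vehicle in log2 units (horizontal axis) for each receptor probe set (vertical axis), in females (squares, 2 arrays a group) and in males (crosses, 1 array each), over a grey bar that shows the larger of the gaps between the 2 female arrays of a group, drawn in both directions from 0. Squares lie outside the bar for 8 of 24 probe sets, and the widest bar, 0.58, is that of Nr3c1 1457635_s_at.

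The males had 1 array a treatment, so their difference has no replicate check. Of the 24 probe sets 1, Nr3c1 1457635_s_at, differed by at least 1.5-fold between the male arrays (0.63 log2 units), beside 0.798% of all probe sets. The next in size were Gper1 1447583_x_at (-0.37) and Nr3c2 (0.22). The male effect minus the female effect passed for 0 of 24 receptor probe sets by limma, where 0.02% of all did. The largest sizes were those of Pgr 1421444_at and Esrrg 1457896_at, given above, and of Nr3c1 1453860_s_at (-0.37, interval -0.74 to 0.0098). The intervals were wide, with 16 of 24 within 1.5-fold, beside 23767 of all 34945 probe sets.

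Males and females were compared over both treatments. By limma 0 of 24 receptor probe sets passed, where 0.0114% of all did, and the smallest adjusted p was 0.309. At an unadjusted p under 0.05 there were 5 of 24, beside 12.5% of all probe sets. Pgr 1421444_at, Nr3c2 and Esrrb 1441921_x_at were on the higher side in males, beside 5.91%, and Esr1 1435663_at and Pgr 1439527_at on the lower side, beside 6.55%. Groups did not overlap for 6 of 24, beside 20.4%, namely these 5 and Pgr 1455772_at, with 3 higher beside 7.83% and 3 lower beside 12.5%.

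Pgr had opposite signs in its probe sets. The brightest, 1439527_at, gave -0.25 for male minus female (SE 0.089, interval -0.46 to -0.045, limma adjusted p = 0.344). The dim 1421444_at gave 0.38 (SE 0.11, interval 0.12 to 0.64, adjusted p = 0.309). These readings of 1 gene thus differed in direction, and 1455772_at gave -0.076 (interval -0.22 to 0.066). Without the male TP library the first was -0.23 and the dim one 0.61. Leaving out each array in turn gave -0.31 to -0.19 for the first and 0.15 to 0.61 for the dim one, whose lowest value came without the male vehicle array.

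For Esr1, the dim 1435663_at stood at 3.70 and 3.70 in males, 4.04 and 3.86 in vehicle females and 3.91 and 3.96 in TP females. The male minus female difference was -0.25 (SE 0.073, interval -0.42 to -0.075, limma adjusted p = 0.310), and -0.25 without the male TP library. The brightest Esr1 probe set gave -0.11 (interval -0.30 to 0.071) and the dim 1421244_at gave 0.043, so the Esr1 probe sets did not share a sign. Nr3c2 gave 0.17 (SE 0.072, adjusted p = 0.394), and 0.092 without the male TP library. Esrrb 1441921_x_at gave 0.17 (SE 0.062, interval 0.027 to 0.32, adjusted p = 0.351), and 0.22 without it, while the other Esrrb probe sets gave -0.010 and 0.051. The male minus female difference was positive for 13 of 14 hypothalamic markers (median 0.071) and 7 of 9 pituitary markers (0.20). So it was for 6 of 7 retina and pineal markers (0.21) and 5 of 6 ear and cochlea markers (0.048). Among blood markers 5 of 6 were positive (0.39). It was negative for 5 of 5 astrocyte (-0.057), 6 of 8 hindbrain and spinal cord and 4 of 6 endothelial and pericyte markers. It was also negative for 4 of 5 bone and cartilage, 4 of 6 muscle and 5 of 8 neuronal markers. Oligodendrocyte lineage and skin and hair markers each had 3 of 5 positive, and microglia had 2 of 5. By brightness, 63.6% of all dim probe sets were positive, beside 33.2% of those not dim. In the retina and pineal list Crx, Cryaa, Rcvrn, Opn1sw and Tph1 were dim, in the ear list Tmc1, Strc, Otoa, Otog and Myo15 and in the blood list Slc4a1, S100a8, S100a9, Camp and Mpo. Their part in the receptor values was not tested.

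**Figure D4:**
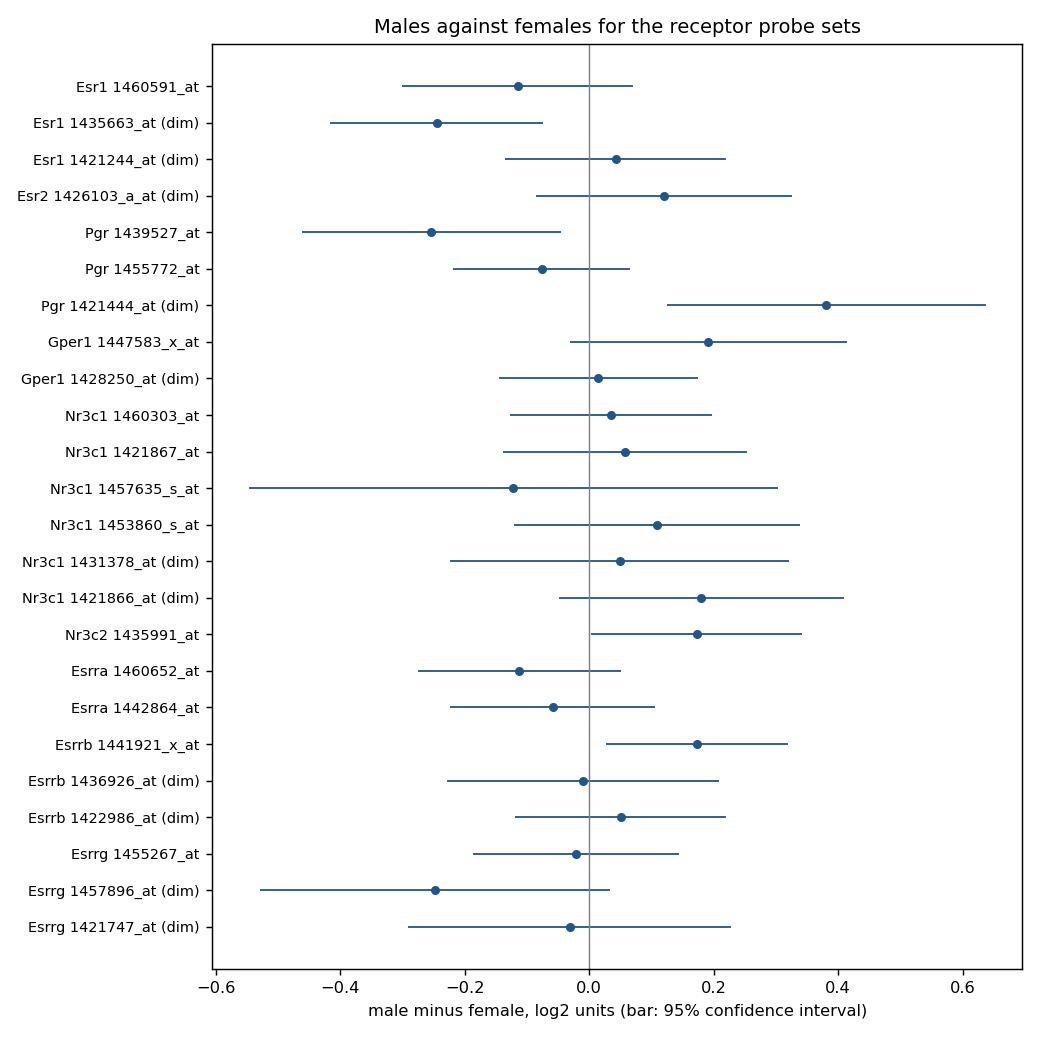
Male minus female in log2 units (horizontal axis) for the 24 receptor probe sets (vertical axis), adjusted for treatment over 6 arrays; points are limma estimates and bars 95% confidence intervals, not adjusted for the number of tests. The Pgr probe sets 1439527_at (-0.25) and 1421444_at (0.38) lie on opposite sides of 0, and 0 of 24 passed the adjusted threshold.

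Probe sets of a gene often differed in sign, for the receptors and over the whole array. Of the 7 receptor genes with several probe sets, all probe sets had the same sign for TP against vehicle in 1 gene (Gper1) over 6 arrays and in 2 genes (Gper1 and Esrra) in females. For males against females this held for 3 (Gper1, Esrra and Esrrg). Among all 9010 genes with several probe sets it held for 3852, 3605 and 3669 genes in the same order. These counts are not matched for the number of probe sets per gene, which was 2 to 6 among the 7 receptor genes. The differences of Nr3c1 probe sets spanned 0.65 log2 units for TP over 6 arrays, and those of Pgr spanned 0.63 for sex. Probe sets of a gene share the same RNA and are not replicates.

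The receptors' partner and target genes were read from 7 lists, through the brightest probe set of each gene. By limma 0 genes of these lists passed, in TP against vehicle over 6 arrays, in females or between the sexes. Over all 18193 genes 10.7% had an unadjusted p under 0.05 for TP over 6 arrays, against 12.3% for sex, and the median TP difference was -0.029, with 37.9% positive. Among 14 chaperones that hold steroid receptors ready for hormone, 1 had such a p, the phosphatase Ppp5c, and the median was -0.021, with 4 positive and 10 negative. Ppp5c stood at 10.09, 10.01 and 10.09 in vehicle arrays and at 9.88, 9.96 and 9.90 in TP arrays (-0.15, limma adjusted p = 0.393). Hspa4 (-0.11) and Bag1 (-0.10), a chaperone and a cochaperone, also lay lower on each TP array, while Hsp90aa1, the chaperone that binds unliganded receptors, gave 0.11 with groups that overlapped.

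Among 21 estrogen and progesterone target genes, 17 differences were negative and the median was -0.062, with 2 at an unadjusted p under 0.05, Gal and Hand2. Gal, the neuropeptide galanin, stood at 7.62, 7.67 and 7.53 in vehicle arrays and at 7.35, 7.39 and 7.39 in TP arrays (-0.23, SE 0.062, limma adjusted p = 0.309), with each TP array below each vehicle array. Hand2 gave -0.15, Tnfsf11, a cytokine of bone and mammary gland, -0.16, and Greb1, a classical estrogen-induced gene, 0.13, all from dim probe sets. The membrane progesterone receptors had 7 of 9 negative differences and a median of -0.057, with Paqr6 at -0.17, Paqr5 at -0.11, Paqr8 at -0.11 and Paqr9 at 0.084. Of 8 enzymes and carriers of steroid supply 7 were negative, with a median of -0.093 and no unadjusted p under 0.05. Hsd17b4 (-0.10), Star (-0.18), Hsd11b2 (-0.10) and Hsd17b2 (-0.20) had the smallest p there.

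Among 24 target genes of the corticoid receptors, 15 were negative, the median was -0.045 and 1 had an unadjusted p under 0.05. This was Cdkn1a, a cell cycle inhibitor, which stood at 9.40, 9.49 and 9.40 in vehicle arrays and at 9.25, 9.28 and 9.20 in TP arrays (-0.19, SE 0.060, limma adjusted p = 0.339). Htr1a (-0.20), a serotonin receptor, Nfkbia (-0.16), the inhibitor of NF-kappa B, and Sult1a1 (-0.12), a sulfotransferase, had the next smallest p. Among 21 partners and targets of the estrogen-related receptors 13 were negative, with a median of -0.054. Cycs, cytochrome c, gave 0.17, and Cox6a2 (-0.23) and Uqcrc1 (-0.16), both of the respiratory chain, gave negative values, these 3 at an unadjusted p under 0.05, while Klf4 gave -0.13. Among 36 other nuclear receptors none had an unadjusted p under 0.05 and the median was -0.022. Those with the smallest p were Nr1d1 (-0.15), Nr0b1 (-0.16), Nr2f1 (0.18), Nr6a1 (-0.22), Nr1i2 (-0.15) and Rxrb (-0.10). All these list values are over 6 arrays and include the male TP library. In females alone the median over all genes was -0.024, with 40.8% positive. There 14 of 21 estrogen and progesterone targets (median -0.038) and 18 of 24 corticoid receptor targets (-0.038) were negative. So were 12 of 21 in the estrogen-related receptor list (-0.014), 10 of 14 chaperones (-0.033), 6 of 9 membrane progesterone receptors (-0.063) and 6 of 8 supply genes (-0.066). Of the other nuclear receptors 21 of 36 were positive there (0.011).

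**Figure D5:**
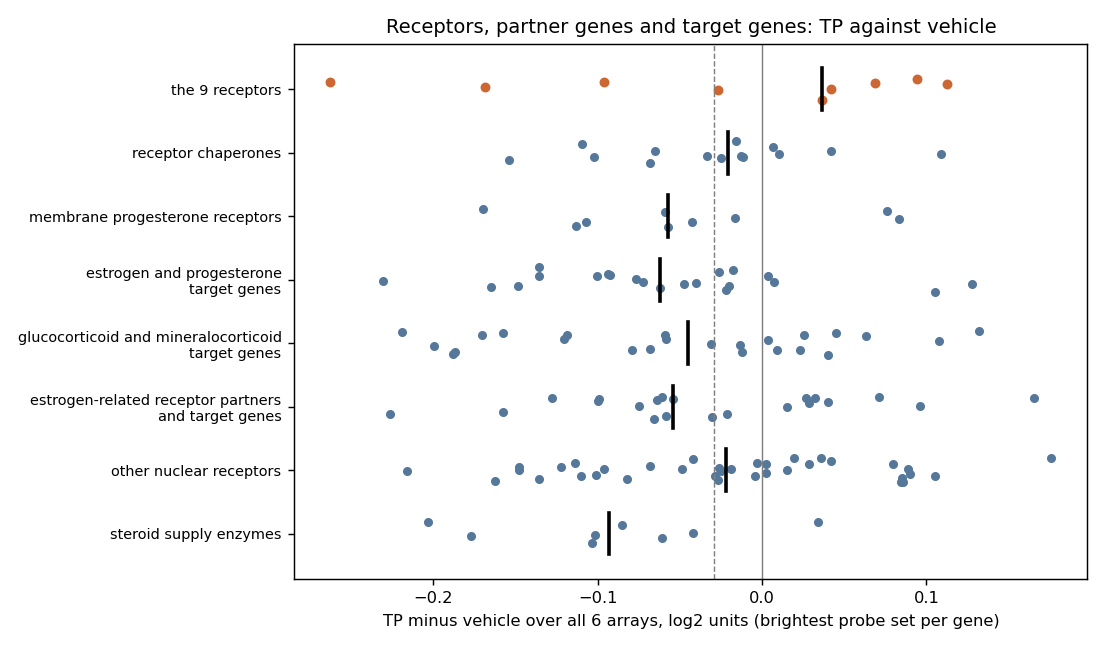
TP minus vehicle over all 6 arrays in log2 units (horizontal axis) for the 9 receptors and for the genes of 7 partner and target lists (vertical axis), 1 point per gene by its brightest probe set, scattered vertically for legibility; thick bars are medians, the solid line is 0 and the dashed line is the median of all genes, -0.029. The receptors lie between -0.26 (Esr2) and 0.11 (Nr3c2).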

How the data were processed

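The deposited values are log2 expression values of 45101 probe sets, made by the authors with RMA (background correction, normalization between arrays and summary of probes) per the submitters' processing notes; no RMA version is given there. Per the labels' protocols, Trizol RNA was turned into biotinylated cRNA with a 3′ IVT kit. Probe sets were named through the platform annotation; 34945 had 1 gene, 932 several, 9160 none and 64 were controls. All 9 receptor genes had the same identifier in the RefSeq table. Limma 3.58.1 in R 4.3.3 (lmFit, eBayes without intensity trend, two-sided) was fitted on all single-gene probe sets, with sex as a covariate over 6 arrays, on 4 female arrays, and with 4 groups for male minus female TP effect, which lends the lone male arrays the spread of the female ones. The fits were tested on simulated data, where 50 probe sets were changed by each size. The simulated spread of each probe set was that between the female arrays of a group, which may be technical only. The simulated data held no sex difference, and the TP change was equal in both sexes. Of those changed by 0.5 log2 units, 44% passed over 6 arrays and 0% in females. Of those changed by 1 log2 unit, 86% passed over 6 arrays and 54% in females. Figures used Python 3.11.15, pandas 2.3.3 and matplotlib 3.10.9. Every receptor probe set is named, with up to 4 genes per list (6 for nuclear receptors) by smallest p over 6 arrays, and Xist, Eif2s3y and Kdm5d as a check of the sex labels (Ddx3y is not analysed here). Of 151 list entries 133 were measured. The receptors and lists were chosen with earlier results of these data known. Other settings were 1 probe set or the mean per gene, all probe sets, no dim probe sets, quantile normalization again, median centring, an intensity trend, a replicate block, a 1.5-fold rule, 4 groups in 1 model, 1 treatment alone for sex, and leaving out each array.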

Additional observations from a re-analysis of the deposited data

Results flagged for a closer look

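Among the genes named, the TP effects of the sexes differed past the limma threshold for the 3 probe sets of Xist, which serve as a check of the sex labels: the male effect minus the female effect was 5.68 log2 units for 1427262_at, 4.22 for 1427263_at and 4.995 for 1436936_s_at, with a largest limma adjusted p of 0.000186. Each rests on the male TP library, and the cause was not tested.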

How the results depend on the processing

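No receptor probe set passed the limma threshold under any of the settings tried, with a smallest adjusted p of 0.169 for TP over 6 arrays, 0.347 in females and 0.206 for sex, and 0.668 among the 3 probe sets followed for the male minus female TP effect. The counts over all probe sets did move. For TP over 6 arrays, where 0 passed, there were 4 with all probe sets, 38 with the intensity trend, 20 by the 1.5-fold rule, and 0 to 2 when leaving out 1 array each (2 without either male array). In females, where 2 passed, there were 5 with the brightest probe set per gene, 5 with all probe sets, 1 without dim probe sets, 6 with quantile normalization, 8 with median centring, 16 with the intensity trend, 40 by the 1.5-fold rule and 0 without any 1 of the 4 arrays. For sex, where 4 passed, there were 10 with all probe sets, 0 without dim probe sets, 37 with the intensity trend, 12 on TP arrays alone and 3 to 14 when leaving out 1 array each (14 without the male vehicle array). For the male minus female TP effect, where 7 passed, there were 2 with the brightest probe set, 2 with the mean per gene and 12 with the intensity trend. With the original or replica array as a replicate block, 0 passed over 6 arrays and 2 in females, 0 of them receptors; the labels do not say that these arrays are paired. The cause of these moves was not tested.

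Signs turned for several receptor values, many of them near 0. For TP over 6 arrays, the mean per gene gave -0.030 for Esrra, -0.075 for Esrrb and 0.13 for Esrrg, and quantile normalization gave 0.013 for Esr1 1435663_at. Leaving out 1 array gave ranges of -0.059 to 0.042 for Esr1 1435663_at, -0.019 to 0.15 for Pgr 1439527_at, -0.092 to 0.0049 for Esrrg 1455267_at, -0.052 to 0.16 for Esrrg 1421747_at, -0.064 to 0.074 for Nr3c1 1421867_at, -0.0070 to 0.20 for Nr3c1 1453860_s_at and -0.0062 to 0.086 for Esrra 1460652_at. In females, the mean per gene gave -0.065 for Esrrb and 0.19 for Esrrg, and quantile normalization gave 0.011 for Esr1 1435663_at. The ranges there were -0.10 to 0.076 for Esr1 1435663_at, -0.058 to 0.23 for Pgr 1439527_at, -0.060 to 0.047 for Esrra 1460652_at, -0.21 to 0.046 for Esrrb 1436926_at, -0.061 to 0.18 for Nr3c1 1421867_at, -0.028 to 0.34 for Esrrg 1421747_at and -0.18 to 0.042 for Gper1 1447583_x_at. For sex, the mean per gene gave 0.017 for Pgr, whose brightest probe set gave -0.25. Quantile normalization gave -0.0090 for Esr1 1421244_at, -0.030 for Gper1 1428250_at, -0.0089 for Esrrb 1422986_at and 0.031 for Esrrg 1455267_at. Vehicle arrays alone gave -0.051 for Gper1 1428250_at, -0.070 for Nr3c1 1431378_at, 0.019 for Esrrb 1436926_at and 0.089 for Esrrg 1421747_at. TP arrays alone gave -0.017 for Esr1 1421244_at, -0.0062 for Nr3c1 1421867_at, 0.024 for Nr3c1 1457635_s_at, -0.074 for Nr3c1 1453860_s_at and 0.077 for Esrrg 1455267_at. The ranges for sex were -0.017 to 0.10 for Esr1 1421244_at, -0.0062 to 0.12 for Nr3c1 1421867_at, -0.070 to 0.17 for Nr3c1 1431378_at, -0.27 to 0.024 for Nr3c1 1457635_s_at, -0.074 to 0.29 for Nr3c1 1453860_s_at, -0.051 to 0.080 for Gper1 1428250_at, -0.062 to 0.049 for Esrrb 1436926_at, -0.15 to 0.089 for Esrrg 1421747_at and -0.12 to 0.077 for Esrrg 1455267_at. Of the 24 receptor probe sets, 16 kept their sign under all settings for TP over 6 arrays, 15 for TP in females and 13 for sex. Among them were Esr2 (TP), Pgr 1421444_at (TP and sex), Esrrg 1457896_at (TP) and Esr1 1435663_at (sex), under the settings that hold them. Without dim probe sets none of these named probe sets has a value. By the brightest probe set or the mean per gene, of these only Esr2 has.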
